A study of Mus musculus with 6 samples.

Results

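The proteasome is the barrel-shaped protease that degrades most ubiquitin-tagged proteins of the cell. Its catalytic 20S core stacks outer rings of α subunits (Psma genes) on inner rings of β subunits (Psmb genes). The 19S regulatory particle, made of ATPases (Psmc) and non-ATPases (Psmd), caps the core, binds ubiquitin chains, unfolds the substrate and feeds it in. Activators of another kind (Psme), an inhibitor (Psmf1) and assembly chaperones (Psmg and some Psmd genes) act on the same core. In brown fat, proteasome genes are known targets of the transcription factor Nfe2l1, which also goes by the alias NRF1 but is not the nuclear respiratory factor of that name.

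Of the 13283 genes in the deposited table, 46 had a symbol beginning with Psma to Psmg and a number, after the immunoproteasome genes Psmb8, Psmb9 and Psmb10 were left out. They comprised 14 genes of the 20S core, 17 of the 19S particle, 5 of activators, 1 inhibitor and 7 assembly chaperones. The other 2, Psmc3ip, a meiotic recombination factor, and Psme3ip1, a protein that binds the activator Psme3, match by symbol only and encode no proteasome subunit. Psma8 and Psmb11, the tissue-specific core subunits of testis and thymus, were not analysed here. All 46 passed the filter on low values (3 or more libraries at 10 or above).

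RNA-seq covered 6 libraries from an immortalized mouse brown preadipocyte line that expresses Cas9, differentiated in culture and given 10 µM forskolin, which raises cAMP, for 6 h on day 6. In 3 libraries the cells carried CRISPR guides against MICT1, a brown fat microprotein (MICT1 KO), and in the other 3 a scrambled guide (Scr). The knockouts were sorted pools made with 2 guides, and the labels do not say which pool gave which library. The targeted gene MICT1 was not analysed here, and so could not serve to check the labels. The deposited values are normalised read counts per gene and are called values below. Their sums are similar but not equal, between 16104616 and 16616825 per library.

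Markers of differentiation differed between the groups. Markers counted as higher or lower had an adjusted p under 0.05 in the test given below, as did 28.5% and 28.3% of all genes. All 9 of the 9 adipocyte markers in the table were lower in MICT1 KO cells, and their summed level was 7319.6 to 8848 CPM (reads scaled to a common total, from the deposited values) in Scr and 892 to 1289 CPM in MICT1 KO libraries. The brown fat marker Cidea is not in the table, and Ucp1, the uncoupling protein of brown fat, was low in both groups, at 20.8, 24.1 and 30.5 in Scr against 1.91, 1.05 and 9.33 in MICT1 KO libraries. Of 8 markers of dividing cells 6 were higher and 2 lower, with summed levels of 2965 to 3053 CPM in Scr and 3642 to 3927 CPM in MICT1 KO. Among progenitor and fibroblast markers 6 of 8 were in the table and 5 were tested, 3 higher and 1 lower, with sums of 2185 to 2548 and 3055 to 3252 CPM. Macrophage markers summed to at most 39.2 CPM, with 4 of 8 in the table and 1 higher (25%, near the share of all genes). In such bulk samples fewer cells of a type and less RNA per cell cannot be told apart, and the part that cell state has in the values below was not tested.

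Promoters of 39 of the 46 genes were found in RefSeq (GRCm38.p6), each 300 bases long, from 250 before the start site to 50 after it. The 4 stretches printed here are the 250 bases upstream of the start, 5′ to 3′ on the strand of the gene, for the core subunit with the largest fall (Psma5), the next largest (Psma1), the core subunit with the chymotrypsin-like site (Psmb5) and the 19S subunit with the largest rise (Psmd8). Capitals mark matches, on either strand, to the core of the antioxidant response element that Nfe2l1 and its relatives bind (TGACNNNGC, where N is any base) and to the CCAAT box (CCAAT, or ATTGG on the other strand).
Psma5 (chr3:108256676-108256925, plus strand): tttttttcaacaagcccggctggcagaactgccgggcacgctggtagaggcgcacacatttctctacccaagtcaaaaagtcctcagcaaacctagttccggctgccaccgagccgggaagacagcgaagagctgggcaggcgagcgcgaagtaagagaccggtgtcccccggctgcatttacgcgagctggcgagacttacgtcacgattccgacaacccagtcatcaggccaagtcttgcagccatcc
Psma1 (chr7:114276117-114276366, minus strand): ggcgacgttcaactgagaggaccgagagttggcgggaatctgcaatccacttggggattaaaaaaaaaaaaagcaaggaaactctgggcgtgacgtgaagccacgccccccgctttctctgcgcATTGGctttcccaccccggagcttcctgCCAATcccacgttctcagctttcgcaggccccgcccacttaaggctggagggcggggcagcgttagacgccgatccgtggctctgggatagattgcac
Psmb5 (chr14:54617996-54618245, minus strand): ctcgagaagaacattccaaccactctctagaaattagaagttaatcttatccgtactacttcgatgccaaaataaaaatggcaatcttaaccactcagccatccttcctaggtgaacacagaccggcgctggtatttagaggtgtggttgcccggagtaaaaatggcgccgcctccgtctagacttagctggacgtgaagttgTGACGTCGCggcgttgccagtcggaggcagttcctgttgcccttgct
Psmd8 (chr7:29180674-29180923, minus strand): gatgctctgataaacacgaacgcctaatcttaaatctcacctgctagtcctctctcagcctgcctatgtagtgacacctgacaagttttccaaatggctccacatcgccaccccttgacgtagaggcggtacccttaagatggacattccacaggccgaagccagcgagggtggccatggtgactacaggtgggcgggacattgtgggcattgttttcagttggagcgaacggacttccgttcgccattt

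The Psma1 stretch holds a CCAAT box on each strand, the Psmb5 stretch holds 1 match to the antioxidant element, and those of Psma5 and Psmd8 hold neither. Over the 300 bases the antioxidant element was found in 6 of 39 promoters (15.4%), against 12.5% of all 27025 genes with such a promoter and 14.8% of the 9995 of them that were tested. Those were Psmb5, Psmb6, Psmc6, Psmd9, Psmd12 and Psme4. The CCAAT box was found in 13 of 39 (33.3%), against 37.9% of all and 40.0% of tested genes. In the core it was in 6 of 11 promoters (54.5%) and in the 19S particle in 4 of 14 (28.6%). The full cAMP response element (TGACGTCA), which shares its first 4 letters with the antioxidant element, was in none of the 39, in 1.88% of all promoters and in 3.34% of those of tested genes. The element TCTCGCGA was in 1 (Psmd5, 2.56%), against 1.08% of all and 2.37% of tested genes. A match is only a match of letters, and where RefSeq lists several start sites the first was used.

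**Figure D1:**
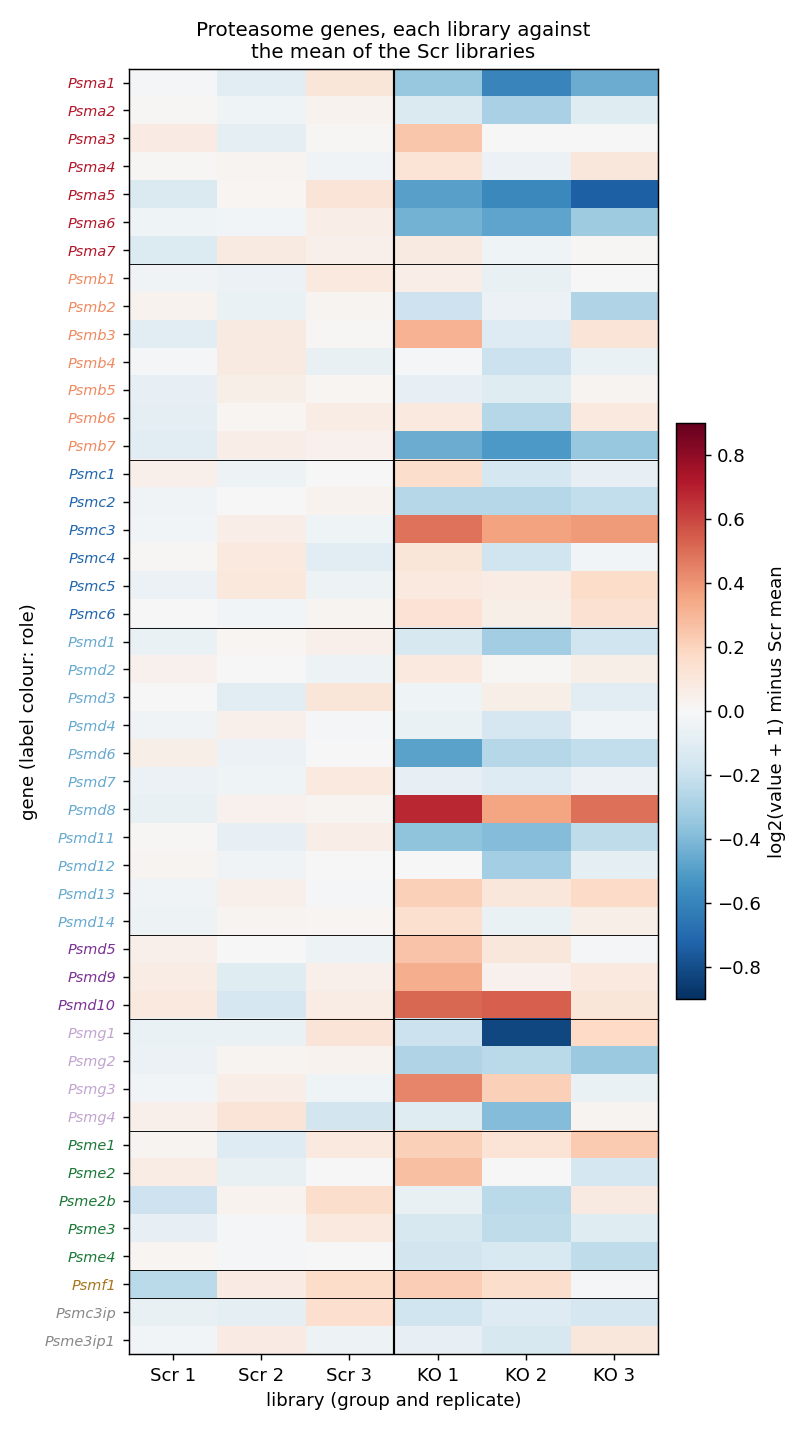
Heat map of log2(value + 1) of each of the 46 genes in each library, minus the mean of the 3 Scr libraries, with genes ordered by role (label colour) and libraries in columns. Psma1, Psma5, Psma6 and Psmb7 are blue in the 3 MICT1 KO libraries, Psmc3 and Psmd8 are red, and most other rows are pale.

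Most proteasome genes did not pass the test between MICT1 KO and Scr cells. By limma-trend with Benjamini-Hochberg adjustment over the 12507 genes tested, 12 of the 46 were lower and 3 higher in MICT1 KO cells with an adjusted p under 0.05. That is 32.6%, against a background of 56.9% of all genes called (28.3% lower and 28.5% higher). None of the 46 changed 2-fold, which 13.7% of all genes did with an adjusted p under 0.05. The median log2 fold change (MICT1 KO minus Scr, on the log2(value + 1) scale) was -0.036, against -0.0053 over all genes, and the median size of change regardless of sign was 0.14, against 0.33. The extremes were Psma5 at -0.60 and Psmd8 at 0.51. The values of the groups did not overlap in 20 of the 46 genes, 14 lower and 6 higher, against 62.0% of all genes (31.2% lower and 30.9% higher). Among the 9132 genes at least as high as the lowest of the 46, 62.7% were called. The size of change was not compared among genes of like level. In Scr libraries the 46 had a median of 33.0 RPKM (defined below), against 6.76 over all genes.

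**Figure D2:**
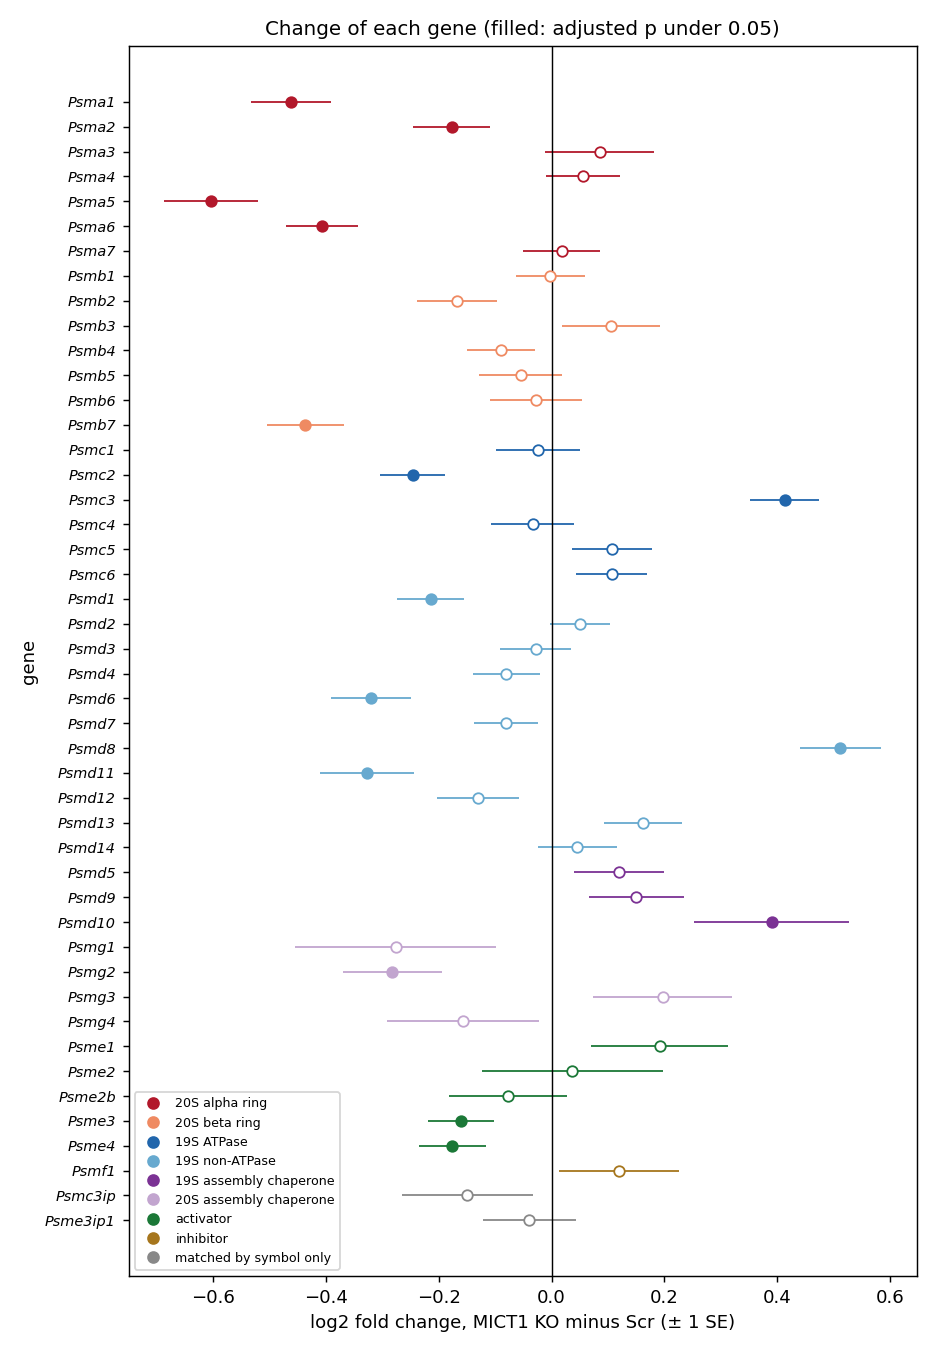
Log2 fold change (MICT1 KO minus Scr) of each gene with 1 standard error either side, coloured by role, filled where the adjusted p was under 0.05. The filled points of the 20S core all lie left of 0, and those of the 19S particle lie on both sides.

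In the α ring, which gates the entry to the core and docks its caps, 4 of 7 genes fell and none rose (57.1% lower, against 28.3% of all genes), with a median log2 fold change of -0.18. Psma5 (chromosome 3, 108256926 to 108279952, GRCm38.p6) had values of 1070.2, 1185 and 1271 in Scr against 833, 783 and 705 in MICT1 KO libraries. The highest MICT1 KO value was well below the lowest Scr value, a 1.52-fold fall (log2 fold change -0.60 ± 0.083 SE, limma-trend adjusted p = 2.97e-06). In the annotation, 54.5% of the 50-base windows of its longest coding transcript also occur in transcripts of other genes, chiefly of Gm8394, so reads may have been split between them.

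Psma1 (chromosome 7, 114264550 to 114276116) had values of 2406, 2279 and 2621 in Scr against 1915, 1613 and 1781 in MICT1 KO libraries. It fell 1.38-fold with no overlap (log2 fold change -0.46 ± 0.070 SE, limma-trend adjusted p = 1.05e-05), and shared no 50-base window with another gene. Psma6 (chromosome 12, 55384222 to 55418459), at 1988, 2006 and 2122 in Scr against 1519.7, 1466 and 1633 in MICT1 KO libraries, fell 1.32-fold with no overlap (log2 fold change -0.41 ± 0.064 SE, limma-trend adjusted p = 1.54e-05). Its 3 libraries in each group lay close together.

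Psma2 fell by less, and of the 4 it alone lost its call under some alternatives (log2 fold change -0.18 ± 0.068 SE, limma-trend adjusted p = 0.0326). Its groups did not overlap, at 1453 or more in Scr and 1384 or less in MICT1 KO libraries, but the call was lost without any 1 of the Scr replicates or without MICT1 KO replicate 2, where the adjusted p was highest, at 0.166. It was also lost with scaling by the upper quartile of each library (adjusted p = 0.0900 from limma-trend). Psma7, the ring's gene nearest to no change, had values of 1489, 1712 and 1674 in Scr against 1719, 1577 and 1633 in MICT1 KO libraries, and the groups overlapped (log2 fold change 0.018, limma-trend adjusted p = 0.843). Psma3 (0.085) and Psma4 (0.056) did not pass either.

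In the β ring, which holds the active sites, 1 of 7 genes fell and none rose (14.3% called, against 56.9%), and the median log2 fold change was -0.054. The gene called was Psmb7 (chromosome 2, 38588046 to 38643952), the subunit with the trypsin-like site, at 1706, 1899 and 1877 in Scr against 1338, 1274 and 1441 in MICT1 KO libraries. It fell 1.35-fold with no overlap (log2 fold change -0.44 ± 0.068 SE, limma-trend adjusted p = 1.52e-05). The subunits with the other two active sites did not pass. Psmb5, with the chymotrypsin-like site, had values of 955, 1042 and 1015 in Scr against 952, 928 and 1020.0 in MICT1 KO libraries, which overlapped (log2 fold change -0.054 ± 0.074 SE, limma-trend adjusted p = 0.550), and 57.1% of its 50-base windows recur in other genes. Psmb6, with the caspase-like site, had values of 1444, 1543 and 1599.7 in Scr against 1622, 1279 and 1620.1 in MICT1 KO libraries, with MICT1 KO replicate 2 the lowest of the 6 libraries (log2 fold change -0.028 ± 0.082 SE, limma-trend adjusted p = 0.789).

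Of the β subunits with no active site, Psmb2 came nearest the threshold, at 1399.6, 1309 and 1393 in Scr against 1203, 1320.2 and 1135 in MICT1 KO libraries (log2 fold change -0.17 ± 0.071 SE, limma-trend adjusted p = 0.0514). Its adjusted p was 0.0497 by limma-voom and 0.0154 without MICT1 KO replicate 2. Psmb3 had values of 1199, 1357 and 1289 in Scr against 1593, 1180.1 and 1389 in MICT1 KO libraries, a wide spread in MICT1 KO cells (log2 fold change 0.11 ± 0.087 SE, limma-trend adjusted p = 0.319), and without MICT1 KO replicate 2 its adjusted p was 0.0298 with a log2 fold change of 0.22. In Psmb3, 55.8% of the windows recur in other genes. Psmb1 was the nearest to no change, at 2452, 2415 and 2667 in Scr against 2617, 2398 and 2506 in MICT1 KO libraries (log2 fold change -0.0019, limma-trend adjusted p = 0.982). Psmb4 (-0.090) did not pass.

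Among the 6 ATPases of the 19S particle, which unfold substrates and open the core, 1 rose and 1 fell (33.3% called, against 56.9% of all genes), with a median log2 fold change of 0.041. Psmc3 (chromosome 2, 91054016 to 91059438) had values of 1733, 1835 and 1719 in Scr against 2472, 2265 and 2303 in MICT1 KO libraries. All MICT1 KO values exceeded all Scr values, a 1.33-fold rise (log2 fold change 0.41 ± 0.061 SE, limma-trend adjusted p = 7.55e-06). Psmc2 (chromosome 5, 21785275 to 21803787), at 2362, 2421 and 2468 in Scr against 2022, 2019.8 and 2071 in MICT1 KO libraries, fell 1.19-fold with no overlap (log2 fold change -0.25 ± 0.057 SE, limma-trend adjusted p = 0.00100). The products of both genes sit in the same ring of ATPases.

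Psmc5 had values of 1117, 1239 and 1122 in Scr against 1233, 1212 and 1299.8 in MICT1 KO libraries, which overlapped (log2 fold change 0.11 ± 0.070 SE, limma-trend adjusted p = 0.203). Psmc1, the nearest to no change, had values of 1653, 1551 and 1599 in Scr against 1787, 1435 and 1519.6 in MICT1 KO libraries (log2 fold change -0.024 ± 0.075 SE, limma-trend adjusted p = 0.801). The groups of Psmc6 did not overlap, with the higher values in MICT1 KO libraries, but it did not pass (0.11, limma-trend adjusted p = 0.157). Psmc4 did not pass (-0.033).

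Of the 11 non-ATPases, 3 fell and 1 rose (27.3% lower and 9.09% higher, against 28.3% and 28.5% of all genes), with a median log2 fold change of -0.080. Psmd8 (chromosome 7, 29174187 to 29180673), a subunit of the lid that holds the deubiquitinase, had values of 1661, 1789 and 1775 in Scr against 2784, 2231 and 2459 in MICT1 KO libraries. It rose 1.43-fold with no overlap (log2 fold change 0.51 ± 0.072 SE, limma-trend adjusted p = 3.79e-06), the largest rise among the 46 genes, and shared no window with another gene. Psmd11 (chromosome 11, 80428615 to 80473248), a lid subunit that braces the cap on the core, had values of 799, 751 and 827 in Scr against 615, 605 and 677 in MICT1 KO libraries and fell 1.25-fold (log2 fold change -0.33 ± 0.083 SE, limma-trend adjusted p = 0.00225). Psmd6 (chromosome 14, 14112185 to 14120945), another lid subunit, at 2036, 1892 and 1968 in Scr against 1403, 1646 and 1684 in MICT1 KO libraries, fell 1.25-fold (log2 fold change -0.32 ± 0.071 SE, limma-trend adjusted p = 0.000643). Neither pair of groups overlapped.

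Psmd1 (chromosome 1, 86064619 to 86139295), a large scaffold of the base of the particle, fell from 3686 ± 142 to 3181 ± 195 (mean ± SD, n = 3 each; log2 fold change -0.21 ± 0.059 SE, limma-trend adjusted p = 0.00424). Its fellow scaffold Psmd2 did not pass, at 0.050. Neither did the ubiquitin receptor Psmd4 (-0.080) or the deubiquitinase Psmd14 (0.046), which frees ubiquitin from the substrate, or its partner Psmd7 (-0.081), whose groups nonetheless did not overlap. Psmd3, the nearest to no change, had values of 2999.9, 2800.4 and 3239 in Scr against 2929.7, 3125 and 2804 in MICT1 KO libraries (log2 fold change -0.028 ± 0.063 SE, limma-trend adjusted p = 0.728). Psmd13 missed the threshold narrowly, with higher values in MICT1 KO cells (log2 fold change 0.16 ± 0.069 SE, limma-trend adjusted p = 0.0501), and passed with library sums as the scaling (adjusted p = 0.0430 from limma-trend). Psmd12 did not pass (-0.13).

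To compare the core with its caps apart from any scaling between libraries, the mean log2(value + 1) of the 17 genes of the 19S particle was subtracted from that of the 14 genes of the core within each library. The difference was -0.33, -0.30 and -0.27 in Scr against -0.42, -0.47 and -0.45 in MICT1 KO libraries, so the core stood lower against the 19S particle in each MICT1 KO library than in any Scr library. The means differed by -0.15, with SDs of 0.028 in Scr and 0.023 in MICT1 KO (n = 3 each). The median log2 fold change was -0.072 over the core and -0.028 over the 19S particle, and called genes were 35.7% and 35.3%. Of the core 5 genes fell and none rose, and of the 19S particle 4 fell and 2 rose, so most genes of either class did not pass. The shares lower, 35.7% of the core and 23.5% of the 19S particle, lay either side of the 28.3% of all genes, and both shares called were below the 56.9% of all genes. No test was made on these class means, whose members are not replicates.

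Against the activators Psme1 to Psme4, the core's mean was higher by 0.998, 1.10 and 1.04 in Scr against 0.92, 0.87 and 0.97 in MICT1 KO libraries, with no overlap and a change of -0.13. The medians showed no such gap, at a log2 fold change of -0.072 over the core and -0.062 over these 4 activators. The share lower was 35.7% in the core and 50% in the activators. Psme1 (0.19) and Psme2 (0.037), which raise the activators' mean change, did not pass, and 59.3% of the 50-base windows of Psme2 recur in Psme2b. Within the core, the α ring minus the β ring was -0.24, -0.30 and -0.23 in Scr against -0.35, -0.36 and -0.41 in MICT1 KO libraries, again with no overlap. Within the 19S particle, the ATPases minus the non-ATPases came to -0.30, -0.26 and -0.35 in Scr against -0.18, -0.23 and -0.23 in MICT1 KO libraries, with no overlap and, unlike the other three differences, higher in MICT1 KO cells. Such separation was common, as 62.0% of all single genes tested did not overlap either. How often differences between other classes of genes separate was not tested.

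**Figure D3:**
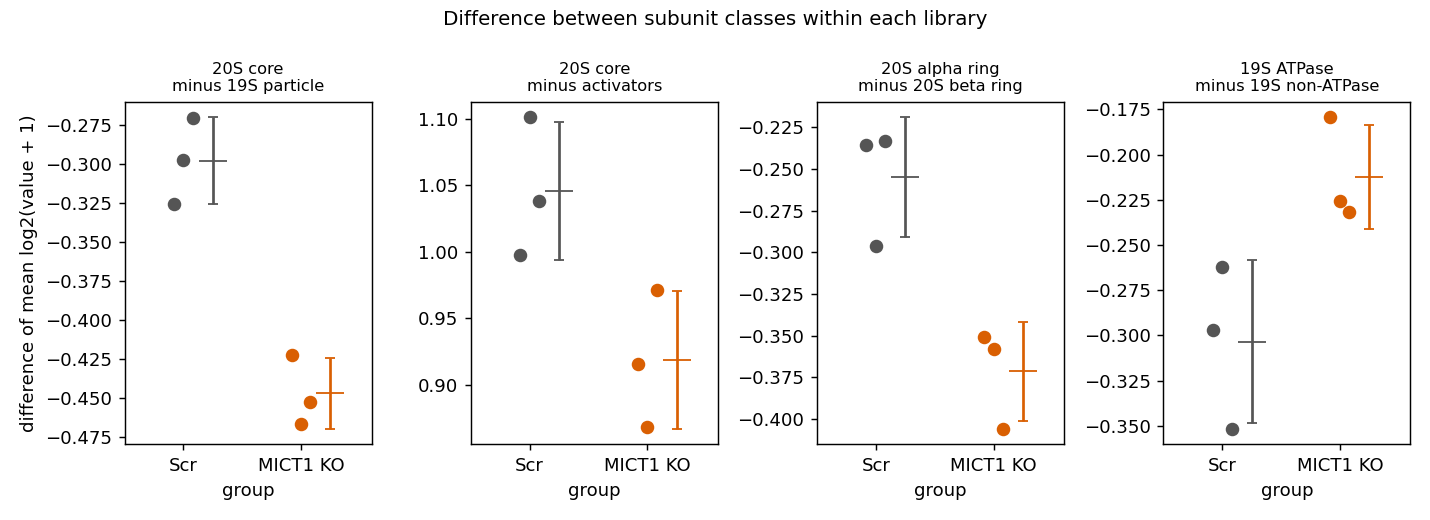
Difference of mean log2(value + 1) between classes of subunits in each library (points), with the mean and SD of each group beside them (n = 3); the vertical axes differ between panels and do not start at 0. The 3 MICT1 KO points lie below the 3 Scr points in the first 3 panels and above them in the last.

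The activators open the core without ATP. Psme3 and Psme4, whose products act mainly in the nucleus, fell slightly. Psme3 had values of 3466, 3625 and 3885 in Scr against 3309, 3119 and 3384 in MICT1 KO libraries (log2 fold change -0.16 ± 0.059 SE, limma-trend adjusted p = 0.0245). Psme4 had values of 2129, 2088 and 2101 in Scr against 1882, 1912 and 1800.5 in MICT1 KO libraries (log2 fold change -0.18 ± 0.059 SE, limma-trend adjusted p = 0.0152). Neither overlapped between the groups, and both calls were lost in some settings: with scaling by the upper quartile of each library the adjusted p was 0.0768 for Psme3 and 0.0514 for Psme4, and leaving out 1 library raised it to 0.125 for Psme3 (without Scr replicate 3, and past the threshold also without Scr replicate 2 or MICT1 KO replicate 2) and 0.0722 for Psme4 (without MICT1 KO replicate 3).

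Psme1 and Psme2 encode the subunits of the interferon-induced activator and lie near each other on chromosome 14 (55578494 to 55581527 and 55587440 to 55591101). Psme1 had values of 259, 235 and 271 in Scr against 296, 277 and 301 in MICT1 KO libraries, which did not overlap but did not pass (log2 fold change 0.19 ± 0.12 SE, limma-trend adjusted p = 0.191). Psme2 had values of 168, 153 and 161 in Scr against 193, 160.4 and 143 in MICT1 KO libraries, which overlapped (log2 fold change 0.037 ± 0.16 SE, limma-trend adjusted p = 0.860). Of 16 interferon-induced genes in the same fit, 12 were higher and 2 lower (75% and 12.5%, against 28.5% and 28.3% of all genes), with a median log2 fold change of 0.89 and summed levels of 568 to 588 CPM in Scr and 793 to 869 CPM in MICT1 KO, and their part in the values of Psme1 and Psme2 was not tested. Psme2b, on chromosome 11, shared 69.3% of its 50-base windows with other genes, chiefly with Psme2, and 59.3% of those of Psme2 recurred in Psme2b. The values of this pair (log2 fold change -0.077 for Psme2b) are therefore uncertain.

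The inhibitor Psmf1 had values of 453, 564 and 600.4 in Scr against 623, 597 and 528 in MICT1 KO libraries, with Scr replicate 1 the lowest, and did not pass (log2 fold change 0.12 ± 0.11 SE, limma-trend adjusted p = 0.356). Of the 7 assembly chaperones 1 rose and 1 fell (28.6% called, against 56.9%), with a median of 0.12. Psmd10, known as gankyrin, which helps the base of the 19S particle to assemble, had values of 250.2, 212 and 247 in Scr against 338, 343 and 255 in MICT1 KO libraries. It rose 1.31-fold (log2 fold change 0.39 ± 0.14 SE, limma-trend adjusted p = 0.0203), although MICT1 KO replicate 3 lay just above the highest Scr value. The call was lost when Scr replicate 2 or MICT1 KO replicate 1 or 2 was left out, with adjusted p up to 0.0966.

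The other Psmd chaperones of the 19S base were Psmd5 and Psmd9. Psmd5 had values of 915, 882 and 858 in Scr against 1059, 951 and 880.0 in MICT1 KO libraries. Psmd9 had values of 933, 828 and 921 in Scr against 1120.2, 917 and 946 in MICT1 KO libraries. The groups overlapped in both genes, and neither passed (log2 fold changes 0.12 and 0.15). Psmg1 and Psmg2 encode a heterodimer that builds the α ring. Psmg2 had values of 602, 635 and 639 in Scr against 519, 528 and 497 in MICT1 KO libraries and fell 1.22-fold with no overlap (log2 fold change -0.28 ± 0.087 SE, limma-trend adjusted p = 0.00898). Psmg1 varied widely among the MICT1 KO libraries, at 281, 281 and 316 in Scr against 256, 165 and 332 in MICT1 KO libraries, and did not pass (log2 fold change -0.28 ± 0.18 SE, limma-trend adjusted p = 0.195). Without MICT1 KO replicate 3 its log2 fold change was -0.51 with an adjusted p of 0.0157 from limma-trend, and without MICT1 KO replicate 2 it was -0.0057.

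Psmg3 and Psmg4 encode the second chaperone pair of the ring. Psmg3 had values of 326, 347 and 324 in Scr against 451, 385 and 318 in MICT1 KO libraries (log2 fold change 0.20 ± 0.12 SE, limma-trend adjusted p = 0.184). Without MICT1 KO replicate 3 its adjusted p was 0.0342, with a log2 fold change of 0.33. Psmg4 had values of 299.7, 314 and 258 in Scr against 269, 221 and 295 in MICT1 KO libraries, which overlapped (log2 fold change -0.16 ± 0.13 SE, limma-trend adjusted p = 0.338). Of the genes matched by symbol only, neither passed (Psmc3ip -0.15, Psme3ip1 -0.040).

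MICT1 KO replicate 2 was the lowest of the 3 MICT1 KO libraries in 33 of the 46 genes and the lowest of all 6 libraries in 24, whereas MICT1 KO replicate 1 was the highest of all 6 in 17. In the core, the mean log2(value + 1) was 10.51, 10.36 and 10.46 in MICT1 KO libraries and 10.56, 10.60 and 10.63 in Scr. In the 19S particle it was 10.93, 10.83 and 10.91 in MICT1 KO and 10.88, 10.90 and 10.90 in Scr libraries. The mean of the core was thus lower in each MICT1 KO library than in any Scr library, and that of the 19S particle overlapped. Only 5 of the 14 core genes were themselves lower without overlap, and 9 did not pass. These means, unlike differences within a library, depend on the scaling between libraries and were computed only on the deposited values. Scaling by the upper quartile of each library moved the median log2 fold change of the core from -0.072 to -0.034. Without MICT1 KO replicate 2, 15 genes passed, of which 12 had passed with all libraries, and the core minus 19S difference stayed between -0.16 and -0.14 whichever library was left out.

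Levels of different genes were compared as RPKM, the CPM divided by the exon length in kilobases, with the union of all annotated exons (GENCODE vM21) as the length, which lowers genes with long alternative exons. In Scr cells the 14 core genes ran from 8.17 (Psma3) to 101 RPKM (Psmb4, the highest of the 46), with a median of 45.2, although each subunit is present in equal number in the core. The 19S genes ran from 7.59 (Psmd11) to 92.5 RPKM (Psmd7), with a median of 40.0. Psma6 was at 101 RPKM in Scr and 76.4 in MICT1 KO cells, and Psmb4 was at 95.3 RPKM in MICT1 KO cells. The library values of Psmb4 were 3204, 3406 and 3078 in Scr against 3189.9, 2827 and 3091 in MICT1 KO libraries, which overlapped. Psme3 (75.8 RPKM in Scr) was the highest activator, while Psme1 (7.06) and Psme2 (5.56) were near the bottom, and Psmf1 was the lowest of the 46 (5.11). The assembly chaperones had a median of 9.85 RPKM.

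**Figure D4:**
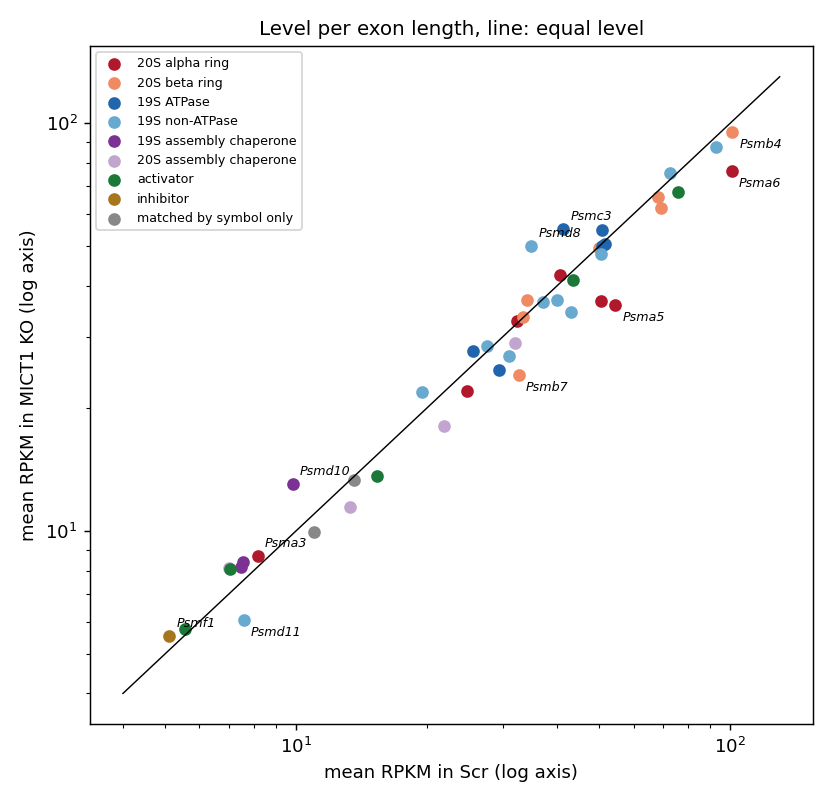
Mean RPKM of each of the 46 genes in MICT1 KO against Scr libraries (log axes), coloured by role, with a line of equal level. Points lie along the line over the range from Psmf1 to Psmb4, with Psma5, Psmb7 and Psma6 below it and Psmd8, Psmc3 and Psmd10 above.

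The 46 genes lie on 16 chromosomes. Chromosome 11 holds 10 of them, of which 3 (Psmd11, Psme3 and Psme4) fell and none rose, where 28.3% of all genes tested fell and 28.5% rose. The share lower on it was thus near that of all genes. Psmc3, which rose, and Psmb7, which fell, are both on chromosome 2, and Psmd8, which rose, and Psma1, which fell, are both on chromosome 7. For 24 of the 46 no 50-base window recurs in another annotated gene, and for 12 at least 10% of windows do. Of the 15 genes called, 11 had no shared window and 13 shared under 10%, the exceptions being Psma5 and Psmd11 (14%). The main partner is itself in the table for 3 of the 46.

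Outside the Psm families, of 14 proteasome-bound enzymes and shuttles tested, 9 fell and 2 rose (78.6% called, against 56.9%), with a median log2 fold change of -0.26. Ddi2, a protease that activates Nfe2l1, had values of 1711, 1742 and 1831 in Scr against 830.0, 1016 and 1084 in MICT1 KO libraries and fell 1.81-fold (log2 fold change -0.86 ± 0.083 SE, limma-trend adjusted p = 1.79e-08). Part of its transcript (17.9% of windows) is shared with the overlapping gene Rsc1a1. Ubqln2, a shuttle that carries ubiquitin-tagged proteins, had values of 1888, 1700.1 and 1657 in Scr against 3056, 2934 and 2908 in MICT1 KO libraries and rose 1.70-fold (log2 fold change 0.76 ± 0.062 SE, limma-trend adjusted p = 1.36e-09). In both genes the groups did not overlap.

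Of 6 genes for ubiquitin and its activating enzymes, 5 rose and none fell (83.3% higher, against 28.5%), with a median of 0.24. Ubb, a polyubiquitin gene, had values of 2838, 2808 and 2776 in Scr against 5659, 4979 and 5242 in MICT1 KO libraries, a 1.88-fold rise (log2 fold change 0.91 ± 0.057 SE, limma-trend adjusted p = 1.85e-11), with 55.4% of its windows shared with other genes. Uba6, an enzyme that activates ubiquitin, had values of 730.0, 734 and 662 in Scr against 839.9, 1076 and 1084 in MICT1 KO libraries and rose 1.40-fold (log2 fold change 0.49 ± 0.093 SE, limma-trend adjusted p = 0.000149). In the system of the unfoldase p97, 2 of 6 genes fell and 1 rose (50% called, near the 56.9% of all genes). Its cofactors Ufd1 (-0.22, limma-trend adjusted p = 0.0149) and Nploc4 (-0.21, adjusted p = 0.00233) fell, and the call of Ufd1 was lost without Scr replicate 3 (adjusted p = 0.0956). The gene that rose was Vcp, which encodes p97 itself (log2 fold change 0.18, limma-trend adjusted p = 0.0121).

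Of the proteasome's other intrinsic and assembly genes, Adrm1, a ubiquitin receptor of the 19S particle, had values of 1715, 1721 and 1566 in Scr against 1298, 1273 and 1281 in MICT1 KO libraries and fell 1.30-fold (log2 fold change -0.38 ± 0.065 SE, limma-trend adjusted p = 4.92e-05). Pomp, which matures the core, had values of 1161, 1246 and 1271 in Scr against 1302, 1159 and 1142 in MICT1 KO libraries and did not pass (-0.031). Sem1, the third of 3 tested, did not pass. Among 11 regulators 5 rose and 2 fell (63.6% called, near the 56.9% of all genes). Nfe2l1 had values of 3563, 3253 and 3144 in Scr against 3783, 3902 and 3858 in MICT1 KO libraries and rose 1.16-fold with no overlap (log2 fold change 0.21 ± 0.058 SE, limma-trend adjusted p = 0.00343). Its relatives did not pass, Nfe2l2 at -0.088 and Nfe2l3 at -0.35, the latter at low values of 17.8, 34.3 and 8.14 in Scr against 13.3, 10.5 and 16.6 in MICT1 KO libraries. Of the small Maf partners of these factors, Mafk rose 2.05-fold (log2 fold change 1.03 ± 0.079 SE, limma-trend adjusted p = 5.21e-10) and Maff 1.67-fold (log2 fold change 0.74 ± 0.068 SE, limma-trend adjusted p = 9.51e-09). Mafg did not pass (log2 fold change -0.14, limma-trend adjusted p = 0.153), although its MICT1 KO values were all below its Scr values.

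**Figure D5:**
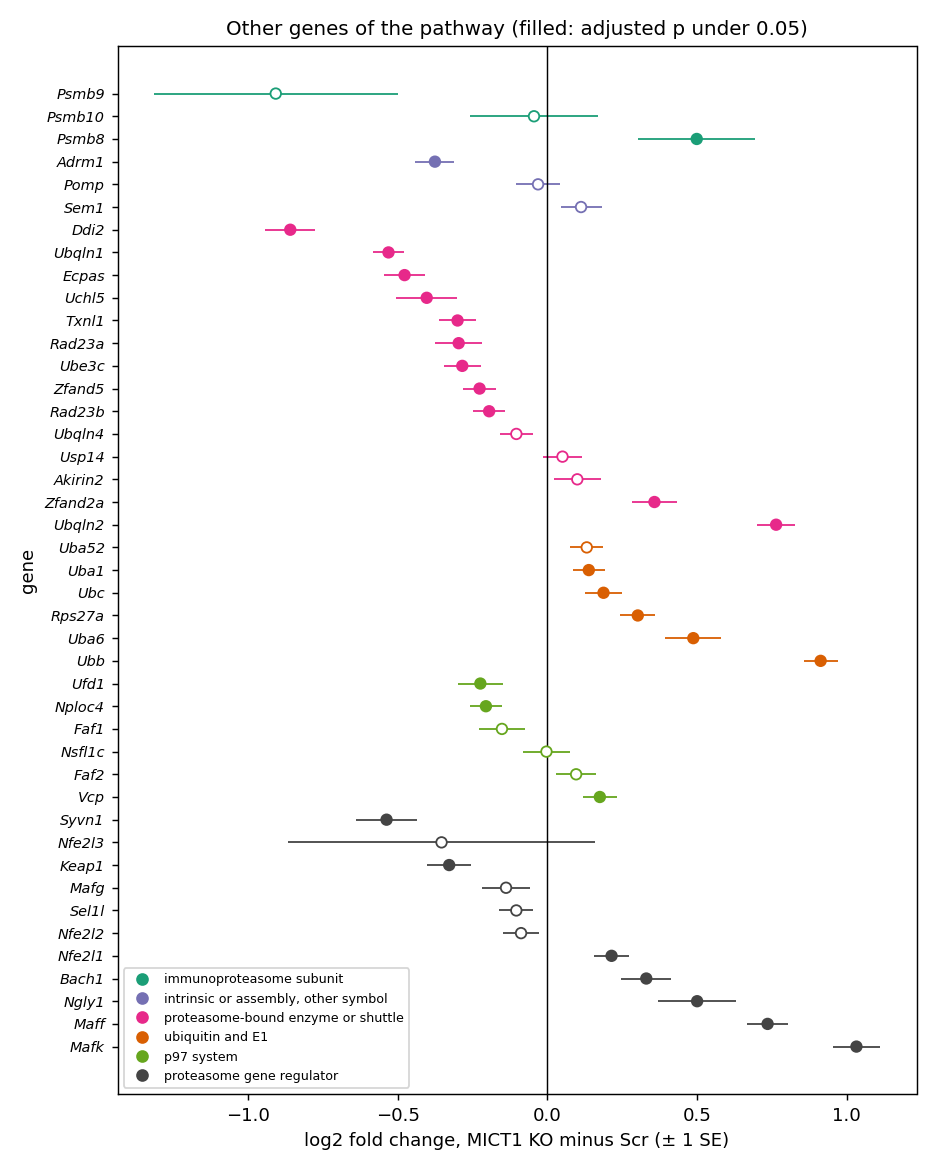
Log2 fold change (MICT1 KO minus Scr) with 1 standard error either side of the tested genes in 6 lists of the pathway outside the 46, coloured by list, filled where the adjusted p was under 0.05. Filled points of proteasome-bound enzymes and shuttles lie mostly left of 0, from Ddi2, and those of ubiquitin genes all lie right of 0, up to Ubb.

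The immunoproteasome subunits, which replace the catalytic β subunits under interferon, were at a small part of the level of the genes they replace. Psmb8, the counterpart of Psmb5, was at 1.53 RPKM in Scr against 68.2 for Psmb5, Psmb9 at 0.702 against 49.9 for Psmb6, and Psmb10 at 2.90 against 32.6 for Psmb7. These gaps depend on the exon lengths used, 3381 bases for Psmb8 but 899 for Psmb5. In CPM, which takes no length, the same pairs in Scr stood at 5.16 against 61.3, 2.57 against 93.4 and 4.94 against 112. Psmb8 had values of 94.0, 76.9 and 82.4 in Scr against 106, 120.1 and 134 in MICT1 KO libraries and rose 1.41-fold (log2 fold change 0.50 ± 0.20 SE, limma-trend adjusted p = 0.0347), a call lost when Scr replicate 2 or 3 or MICT1 KO replicate 2 or 3 was left out, with adjusted p up to 0.127. Psmb9 (-0.91, with MICT1 KO values of 48.6, 13.7 and 15.5) and Psmb10 (-0.044) did not pass.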

How the data were processed

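RNA-seq was done on 3 Scr and 3 MICT1 KO libraries of forskolin-treated brown adipocytes. The deposited signal per gene is a normalised read count that the authors made with Partek software after alignment to mouse GRCm38 (mm10). The submitters' processing notes also name STAR and DESeq2 with no role, and the counting model is not given in the sources used here. The values are not whole numbers, so no count model was fitted, and the table lists only genes above 0 in every library, which limits what can be said of silent genes. The depth of the libraries before scaling is not given in the sources used here and was not worked out from the values.

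Values were tested as log2(value + 1) with limma-trend (limma 3.58.1, R 4.3.3) over the 12507 genes that reached a value of 10 in 3 or more of the 6 libraries, with Benjamini-Hochberg adjustment over all of them. The script was tested on simulated data. Nothing in the labels says that replicates came from separate cultures, so p-values measure only the spread between these samples, which may be technical. An exact permutation test of 3 against 3 libraries cannot go below p = 0.10. RPKM and shared 50-base windows were computed from the GENCODE annotation, and promoters and gene positions came from RefSeq. Genes with values per library were the catalytic subunits, the activators, the inhibitor and the Psmg chaperones, and in each ring or class of subunits the 3 with the largest log2 fold change in size and the one nearest to no change, with the highest and lowest by RPKM. In the other pathway lists Nfe2l1, Nfe2l2, Nfe2l3, Pomp and the 2 largest called changes per list were named. Ucp1, Sem1, Psmb9, Psmb10, Mafg and Vcp were named after their values were seen. The members, lists and rules were chosen with earlier results of these data known. Alternatives were other scalings, filters, pseudocounts, limma-voom, a replicate block and leaving out each library. Same-numbered libraries correlated at -0.0236, -0.0155 and 0.0637 in their deviations from the group means, so the numbers were not taken as pairs.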

Additional observations from a re-analysis of the deposited data

How the results depend on the processing

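For 60 single genes followed under up to 15 alternatives, 836 of 897 values kept their direction and their side of the threshold, and 11 of the 15 called genes passed in every alternative. Nfe2l3 has no value under the filters at a maximum of 4 CPM and 4 RPKM, nor Psmb8 under the latter, since they were too low. Of the called genes, the exceptions were Psma2, Psme3, Psme4 and Psmd10. The core minus 19S difference stayed between -0.163 and -0.135 when 1 library was left out. With a rule of at least 1.8-fold and an unadjusted p under 0.05, 924 of all genes were lower and 1265 higher, and 0 of the 46 were lower and 0 higher, since none of the 46 changed by that much. Leaving out 1 library gave 10 to 13 lower and 2 to 4 higher genes of the 46. It moved the median log2 fold change of the 19S particle between -0.085 (without MICT1 KO replicate 1) and 0.041 (without MICT1 KO replicate 2) and that of the activators between -0.12 and -0.0073. The cause was not tested.

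Among the genes followed, direction changed only in some that had not passed. Scaling by the upper quartile, which moved the median of all genes to 0.032, gave log2 fold changes of 0.036 for Psmb1, 0.0099 for Psmb6, 0.014 for Psmc1, 0.0047 for Psmc4, 0.010 for Psmd3 and 0.0071 for Pomp, and scaling by library sums gave 0.0024 for Psmb1. Without 1 library the ranges were -0.044 to 0.057 for Psma7, -0.033 to 0.042 for Psmb1, -0.085 to 0.086 for Psmb6, -0.12 to 0.042 for Psmc1, -0.10 to 0.041 for Psmc4, -0.080 to 0.025 for Psmd3, -0.0026 to 0.099 for Psmd14, -0.080 to 0.14 for Psme2, -0.17 to 0.0067 for Psme2b, -0.11 to 0.014 for Psme3ip1, -0.00076 to 0.20 for Psmf1, -0.090 to 0.0041 for Pomp and -0.85 to 0.12 for Nfe2l3.

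The fit with the replicate number as a block called 15 of the 46 genes, and all 15 were called without it. The samples share only a number, and the block changed no call among the 46.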
